A study of Homo sapiens with 24 samples.

Results

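The response of SK-HEP-1 cells to Nutlin-3a was described in the control lines of a CRISPR interference (CRISPRi) experiment, using the 8 of 24 polyadenylated RNA libraries that come from lines with a non-targeting guide RNA. SK-HEP-1 is a human line from the ascites of a patient with liver adenocarcinoma, given as endothelial cells in the labels. CRISPRi silences a gene by bringing a catalytically dead Cas9 with a repressor domain to its start. NTC1 and NTC2 are CRISPRi lines of SK-HEP-1, each with its own non-targeting guide. The remaining 16 libraries come from 4 CRISPRi lines with guides against PURPL, a long noncoding RNA, and were used here only for comparison. Each line was harvested after 6 h in 10 µM Nutlin-3a or in DMSO, its vehicle, with 2 harvests (numbered 1 and 3) for each line and treatment, so 4 libraries stood against 4. The labels call the harvests biological replicates. Whether the lines are clones or pools of cells is not given in the sources used here.

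Nutlin-3a occupies the pocket of MDM2 that holds p53. MDM2 is the ubiquitin ligase that keeps p53 scarce in unstressed cells, and p53 is a transcription factor that accumulates once MDM2 is blocked. It activates genes through a response element made of a pair of half-sites, among them CDKN1A, whose product p21 inhibits cyclin-dependent kinases. Through p21 the E2F and DREAM complexes then shut down cell cycle genes, most of which p53 does not bind.

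Levels are given in CPM (counts scaled to a common library size, with TMM factors), as single libraries or as a mean with its SD over the 4 libraries of a treatment. Where 4 values are listed for a treatment, the first pair is NTC1 (harvests 1 and 3) and the second pair NTC2. Changes are log2 fold changes of Nutlin-3a over DMSO with their SE, from edgeR's quasi-likelihood F test of the 8 libraries with a term for line, and adjusted p-values are Benjamini-Hochberg values over all genes tested. A gene was called when its adjusted p was under 0.05. CPM is not corrected for transcript length, so levels are not compared between genes. In bulk RNA, fewer cells that express a gene and less of its RNA per cell cannot be told apart.

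The 8 libraries held 66.4 to 92.1 M counts each. The endothelial label was not borne out by the defining markers: 8 of 9 endothelial markers stayed under 1 CPM in every library, with at most 0.0285 CPM for PECAM1, 0.0457 CPM for CDH5 and 0.0683 CPM for VWF. The summed level of the 9 was 20.6 to 39.1 CPM in DMSO and 21.3 to 27.2 CPM in Nutlin-3a, most of it from the remaining marker. The 6 epithelial markers summed to 1576 to 2523 CPM in DMSO and 1831 to 2135 CPM in Nutlin-3a, with EPCAM at only 0.328 to 0.626 CPM. The vimentin gene VIM was at 3830 to 4480 CPM, albumin (ALB) at no more than 0.0127 CPM, and the 6 leukocyte markers summed to 0.198 to 0.346 CPM in DMSO and 0.366 to 0.399 CPM in Nutlin-3a. Of the leukocyte markers ITGAM alone passed the filter on low counts, and it rose from 0.0606 ± 0.00564 to 0.184 ± 0.0157 CPM. Of 7 tested fibroblast and mural cell markers, ACTA2 and RGS5 rose. Their part in the results was not tested. Harvest 3 of NTC1 in DMSO stood apart from the other libraries. Its levels rose by 0.26 on the log2 scale per 10 percentage points of transcript GC content, against -0.14 to 0.10 in the other 7, and its correlation with the median of the other DMSO libraries was 0.990, against 0.996 or more. Results that it moves are also given without it.

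The treatment was visible in each library. CDKN1A stood at 81.7, 109, 70.9 and 74.2 CPM in DMSO and at 960.4, 1068, 977 and 1088 CPM in Nutlin-3a, a rise of 3.62 ± 0.13 (adjusted p = 5.17e-07). MDM2, itself a p53 target, rose by 3.25 ± 0.07, and BTG2, an antiproliferative p53 target, by 3.56 ± 0.09. The groups did not overlap in these 3 targets.

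Of 15423 genes tested, 1504 rose (9.75%) and 1510 fell (9.79%). At 2-fold or more, 320 rose (2.07%) and 102 fell (0.661%). Rises reached larger sizes than falls: 637 risers and 867 fallers changed by under 0.5 on the log2 scale, while 84 genes rose and 8 fell by 4-fold or more. In both lines separately, 2919 of the 3014 called genes had both Nutlin-3a libraries on one side of both DMSO libraries. The calls rest on the same libraries, which favours this, and the share over all genes tested is not given here. A small share of the called genes lies in 2 textbook lists. The list of known p53 targets had 125 of 178 tested members up and 6 down, and the list of cell cycle genes had 0 up and 184 of 231 down by edgeR (2 up at an unadjusted p under 0.05 and 0 by DESeq2). Outside both lists lay 1379 of the risers (91.7%) and 1320 of the fallers (87.4%), and at 2-fold or more 251 and 75. These are the genes described here. Most genes named below were picked with the treatments apart in each line, so a lack of overlap in them partly follows from that choice.

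The counts depend on single libraries. Leaving out harvest 1 of NTC2 in Nutlin-3a left 931 up and 877 down, and leaving out harvest 1 of NTC2 in DMSO left 980 and 980. Leaving out harvest 1 of NTC1 in Nutlin-3a left 966 down. Without harvest 3 of NTC1 in DMSO, 1685 genes rose and 2282 fell. The function lists below stand beside 9.75% up and 9.79% down over all genes tested. Lists near these shares are given for their single genes and not as a result about the list. The list counts include members that are also on a textbook list.

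**Figure D1:**
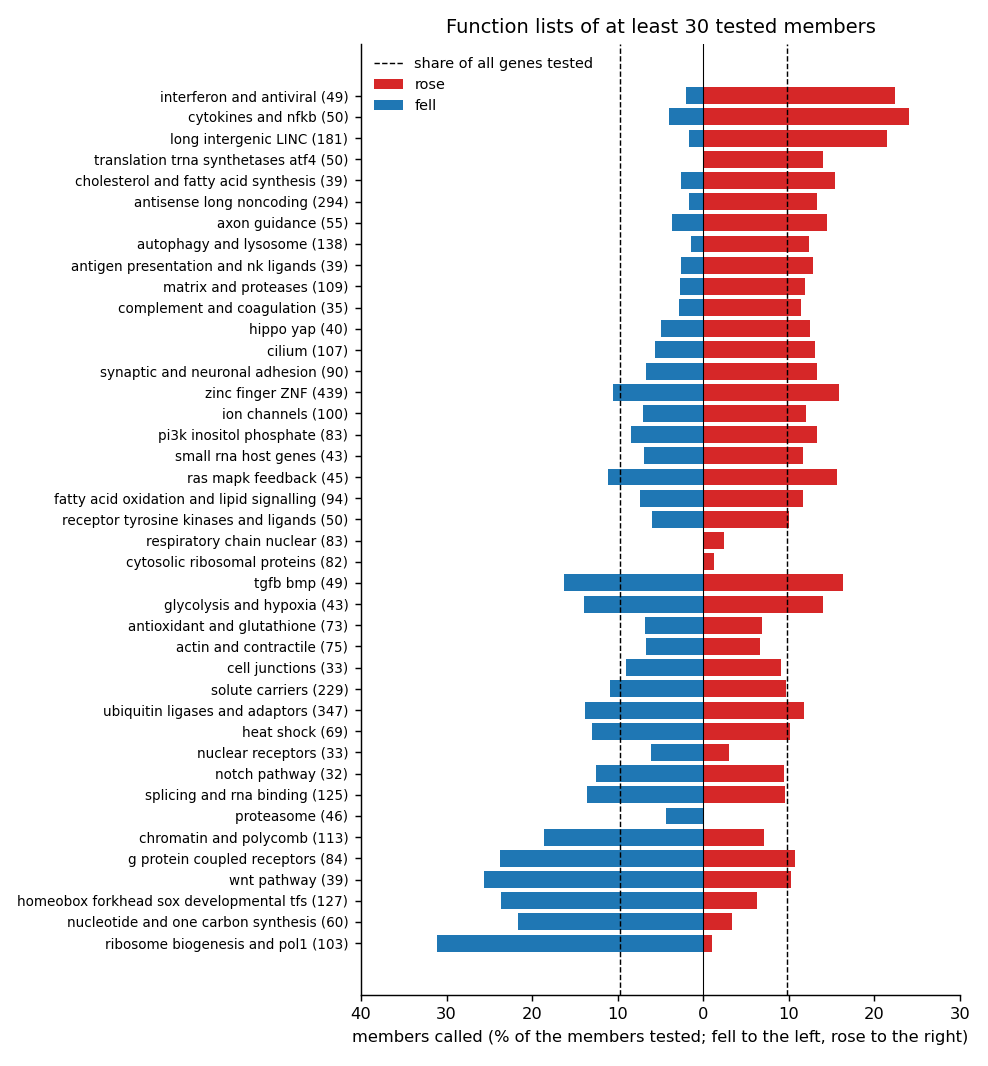
Share of the tested members of 41 function lists of at least 30 tested members (number tested in parentheses) that rose (red, to the right) or fell (blue, to the left) with Nutlin-3a in the NTC lines, in % of the members tested. Members that are also on a textbook list are included. The dashed lines are the shares over all genes tested, 9.75% up and 9.79% down; cytokine genes (24.0%), interferon-stimulated genes (22.4%) and genes with a LINC symbol (21.5%) reach furthest to the right, and ribosome biogenesis (31.1%), Wnt (25.6%) and G protein-coupled receptor genes (23.8%) furthest to the left.

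The letters of a p53 response element were looked for in RefSeq promoter windows (GRCh38.p14, 250 bases before to 50 after each annotated start). The half-site, which reads the same on both strands, was present in 6.63% of all 35116 windows. A pair of half-sites with at most 13 bases between them was present in 10 windows (0.0285%). Risers outside the textbook lists with such a window included MCC and LNCTAM34A, which are given as examples and not as a full list. They are shown beside PURPL, whose window also holds it, because the 3 give the letters of a whole element at the annotated start of a gene called up. MCC and LNCTAM34A were picked for this after their values were seen. Capitals mark the pair with any bases between the half-sites, and each stretch runs 5′ to 3′ on the strand of the gene.
PURPL (chr5:27472125-27472224, plus strand): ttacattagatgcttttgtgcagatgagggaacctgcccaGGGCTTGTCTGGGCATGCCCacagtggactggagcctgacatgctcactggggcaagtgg
MCC (chr5:113488455-113488561, minus strand): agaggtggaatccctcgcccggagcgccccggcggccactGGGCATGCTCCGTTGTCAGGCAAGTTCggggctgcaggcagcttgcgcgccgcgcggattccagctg
LNCTAM34A (chr1:9182104-9182203, plus strand): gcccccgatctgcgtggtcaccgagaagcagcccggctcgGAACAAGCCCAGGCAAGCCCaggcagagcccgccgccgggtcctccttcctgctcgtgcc

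PURPL, at chr5:27472292-27496401 on hg38, stood at 7.51, 7.33, 8.34 and 9.92 CPM in DMSO and 30.6, 38.8, 32.3 and 30.9 CPM in Nutlin-3a. All Nutlin-3a libraries were above all DMSO libraries, a rise of 2.01 ± 0.12 (adjusted p = 7.59e-06). MCC, a gene named for its mutation in colorectal cancer, was at 4.04 ± 0.613 CPM in DMSO and 9.75 ± 0.432 CPM in Nutlin-3a, a rise of 1.27 ± 0.11 (adjusted p = 6.76e-05). LNCTAM34A, a noncoding RNA that starts beside the miR-34a locus, was low, at 0.152 ± 0.0590 CPM in DMSO and 0.516 ± 0.0941 CPM in Nutlin-3a, a rise of 1.73 ± 0.29 (adjusted p = 0.00341). It lies within MIR34AHG, a listed p53 target on the opposite strand that rose by 2.19 ± 0.35, and since the strand setting of the counting is not known here the values of LNCTAM34A and MIR34AHG cannot be told apart. A match of letters is a description of the window and not a binding site. Windows of risers are not compared with windows of other genes, since only 79.9% of the coding risers outside the textbook lists had one and such a comparison is void under 80%.

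The genes with the largest rise outside the textbook lists, among those reaching 1 CPM, were led by a neuronal receptor subunit. GRIN2C, which encodes a subunit of the NMDA glutamate receptor (chr17:74842023-74861504), stood at 0.226, 0.0963, 0.176 and 0.0567 CPM in DMSO and 4.35, 3.59, 3.05 and 3.89 CPM in Nutlin-3a, a rise of 4.76 ± 0.29 (adjusted p = 7.92e-06). It went from near the limit of detection to a low but even level in all 4 treated libraries. SULF2, a sulfatase that trims heparan sulfate outside the cell, stood at 0.239, 0.492, 0.285 and 0.283 CPM in DMSO and 2.39, 3.52, 3.05 and 4.26 CPM in Nutlin-3a, a rise of 3.32 ± 0.26. CLCA2, a regulator of calcium-activated chloride conductance, stood at 0.492, 0.396, 0.714 and 0.544 CPM in DMSO and 3.53, 5.31, 4.64 and 5.53 CPM in Nutlin-3a, a rise of 3.16 ± 0.19. In both genes the treated libraries lay several times above every DMSO library. RRAD, a small GTPase that restrains voltage-gated calcium channels, stood at 0.678, 1.38, 0.659 and 0.363 CPM in DMSO, highest in harvest 3 of NTC1, and at 5.76, 5.69, 4.13 and 6.34 CPM in Nutlin-3a, a rise of 2.87 ± 0.30. CLCA2, SULF2 and RRAD are known from other work to respond to p53, so a gene outside the textbook list is not a gene unknown to p53.

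CDH10, a classical cadherin of the nervous system, lies on chromosome 5, as PURPL does (chr5:24487100-24644978 against chr5:27472292-27496401). It stood at 2.86, 2.71, 2.95 and 3.88 CPM in DMSO and 26.0, 31.1, 29.5 and 29.5 CPM in Nutlin-3a, a rise of 3.23 ± 0.11 (adjusted p = 5.17e-07). The treated libraries were even among themselves and far above every DMSO library.

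The remaining genes of the 10 largest rises are noncoding or pseudogene entries. NBEAP1, a transcribed pseudogene of the vesicle trafficking gene NBEA (chr15:20657638-20688408), stood at 0.0642 to 0.0931 CPM in DMSO and 1.07 to 1.28 CPM in Nutlin-3a, a rise of 4.02 ± 0.20. AL109976.1, an intergenic RNA (chr20:3239705-3245382), rose by 3.96 ± 0.23 and lies 146 bases from SLC4A11, which was not called. GAS6-AS1, antisense to GAS6, rose by 3.22 ± 0.28, while GAS6 itself, which encodes a ligand of the AXL receptor family, changed by -0.12 and was not called. GAS6-AS1 also overlaps the coding gene TMEM255B on the same strand. AL135905.1 (chr6:63571005-63572408) rose by 3.04 ± 0.13 and overlaps PTP4A1, a phosphatase gene that rose by 0.97, on the opposite strand. AC025423.2, a processed pseudogene entry inside MDM2 on the same strand, went from 17.2 ± 0.836 to 168 ± 15.1 CPM and rose by 3.29 ± 0.08. The strand setting of the counting is not known here, and RSEM splits reads between overlapping entries. The values of AC025423.2 and AL135905.1 thus cannot be told apart from those of MDM2 and PTP4A1. The same holds for GAS6-AS1 beside GAS6 and TMEM255B.

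**Figure D2:**
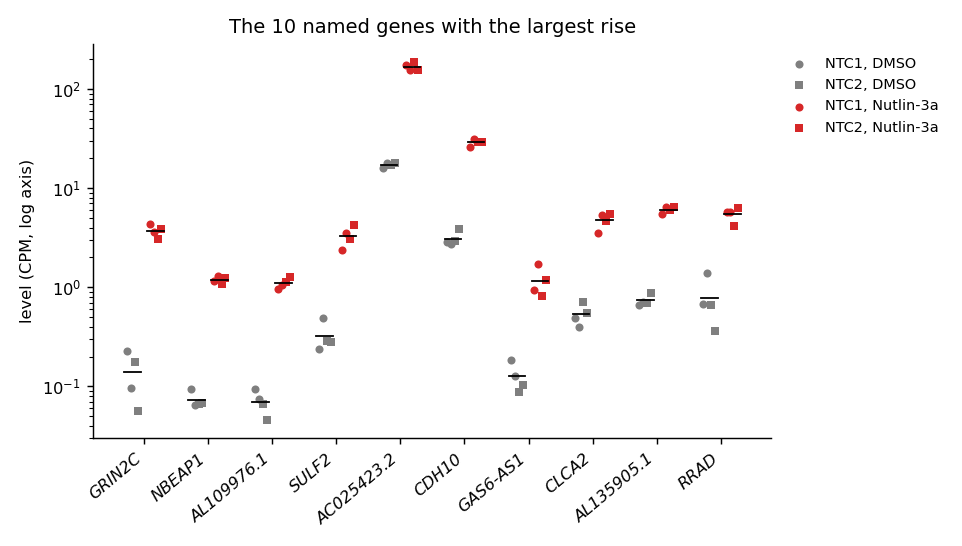
Level in CPM (log axis) of the 10 named genes with the largest rise, in each of the 8 libraries (circles NTC1, squares NTC2; grey DMSO, red Nutlin-3a), with the mean of each treatment as a bar. In every gene all 4 Nutlin-3a libraries sit above all 4 DMSO libraries, from GRIN2C (log2 fold change 4.76) to RRAD (2.87). The choice of genes with the treatments apart in each line favours this.

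Among risers that reached a mean of 50 CPM in either treatment outside the textbook lists, the 8 largest changes were those of AC025423.2, given above, of the cytokine genes IL1B and IL1A and of 5 other genes. IL1B, the secreted interleukin that drives fever and inflammation, stood at 24.4, 30.6, 25.8 and 24.7 CPM in DMSO and 105, 118, 116 and 121 CPM in Nutlin-3a, a rise of 2.12 ± 0.09 (adjusted p = 1.22e-06). IL1A, its neighbour on chromosome 2 and a ligand of the same receptor, stood at 27.3, 25.0, 29.5 and 27.3 CPM in DMSO and 77.1, 85.8, 90.8 and 82.1 CPM in Nutlin-3a, a rise of 1.62 ± 0.07. Both genes were induced to about the same level in NTC1 and NTC2. EDA2R, a TNF receptor family member for ectodysplasin A2, rose by 1.67 ± 0.07, from 30.05 ± 2.04 to 95.3 ± 4.22 CPM. RNF19B, a ubiquitin ligase of the RBR class, rose by 1.57 ± 0.06, from 20.9 ± 0.681 to 61.8 ± 1.68 CPM. PRKX, an X-linked kinase close to the catalytic subunit of protein kinase A, rose by 1.52 ± 0.07, PSTPIP2, an F-BAR protein that bends membranes, by 1.49 ± 0.07, and PLCXD2, a protein with a phospholipase C domain, by 1.40 ± 0.14. Their treated libraries were close together, and in PLCXD2 the lowest DMSO value, 29.8 CPM, belonged to harvest 3 of NTC1.

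Cytokine genes and NF-kB targets rose more often than they fell. Of 50 tested members, 12 rose and 2 fell, with a median change of 0.04, beside 9.75% and 9.79% of all genes and a median of 0.01. TNFSF4, the OX40 ligand that costimulates T cells, rose by 1.15 ± 0.10, from 15.3 ± 1.91 to 34.0 ± 2.50 CPM. The interleukin 1 pair, EDA2R and TNFSF4 gave the smallest p-values of the list, and most members were not called. Of the fallers, TNFRSF19, an orphan TNF receptor, went from 3.29 ± 0.681 to 1.90 ± 0.193 CPM, a change of -0.78 ± 0.14 (adjusted p = 0.0054). The count of risers ranged from 10 (without harvest 1 of NTC1 in Nutlin-3a) to 15 (without harvest 3 of NTC1 in DMSO) and that of fallers from 1 (without harvest 1 of NTC1 in DMSO) to 5 (without harvest 3 of NTC1 in DMSO) when single libraries were left out.

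Interferon-stimulated and antiviral genes had 11 of 49 members up and 1 down, with a median of 0.22. IFIT2, which binds foreign RNA, stood at 14.8, 13.4, 17.5 and 16.9 CPM in DMSO and 24.4, 26.8, 26.6 and 26.8 CPM in Nutlin-3a, a rise of 0.75 ± 0.08 (adjusted p = 0.000202). TRIM5, a restriction factor of retroviral capsids, rose by 0.56 ± 0.06, from 46.9 ± 3.06 to 69.0 ± 2.14 CPM. STAT2, the transcription factor of the type I interferon signal, rose by 0.55 ± 0.07. These changes were well under those of the cytokine pair, and no library of one treatment overlapped the other in these 3 genes. PLSCR1, a phospholipid scramblase induced by interferon, was the member that fell, with a change of -0.48 ± 0.06, from 41.2 ± 3.68 to 29.4 ± 0.965 CPM. The count of risers ranged from 7 (without harvest 1 of NTC1 in DMSO) to 17 (without harvest 3 of NTC1 in DMSO), and that of fallers reached 2 (without harvest 3 of NTC1 in DMSO).

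Sensors of innate immunity moved in both directions, with 7 of 29 up and 4 down. NLRP1, an inflammasome sensor, stood at 16.2, 14.1, 13.9 and 11.6 CPM in DMSO and 27.2, 27.0, 26.8 and 29.5 CPM in Nutlin-3a, a rise of 0.99 ± 0.10 (adjusted p = 0.000143). IFI16, a nuclear sensor of DNA, went from 87.3 ± 9.51 to 145 ± 8.76 CPM, a rise of 0.74 ± 0.07, and GSDME, a pore-forming gasdermin, rose by 0.49 ± 0.06. TBK1, the kinase downstream of several sensors, rose by 0.35 ± 0.07. CGAS, the cytosolic DNA sensor, went the other way, at 23.2, 25.1, 23.9 and 29.6 CPM in DMSO and 15.3, 16.2, 17.6 and 15.3 CPM in Nutlin-3a, a change of -0.66 ± 0.09 (adjusted p = 0.00089), as did NOD1, a sensor of bacterial peptidoglycan, with -0.57 ± 0.10. The 2 DNA sensors thus changed in opposite directions without overlap between treatments. The counts ranged from 4 (without harvest 1 of NTC1 in DMSO) to 8 (without harvest 3 of NTC1 in DMSO) for risers and from 2 (without harvest 1 of NTC1 in Nutlin-3a) to 4 (without harvest 3 of NTC1 in DMSO) for fallers.

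Of 39 genes of antigen presentation and natural killer cell ligands, 5 rose and 1 fell. TAP1, the peptide transporter that loads MHC class I, stood at 35.2, 43.8, 30.9 and 29.1 CPM in DMSO and 74.5, 81.9, 69.7 and 86.4 CPM in Nutlin-3a, a rise of 1.18 ± 0.11 (adjusted p = 0.000149). ERAP2, which trims peptides for class I, rose by 0.42 ± 0.09 and ULBP2, a ligand of the natural killer receptor NKG2D, by 0.59 ± 0.12. MICB, another NKG2D ligand, fell by 0.20 ± 0.06 (adjusted p = 0.0451), a call that was kept only without harvest 3 of NTC1 in DMSO or harvest 3 of NTC2 in Nutlin-3a when libraries were left out in turn. The count of risers ranged from 3 (without harvest 1 of NTC1 in DMSO) to 6 (without harvest 3 of NTC1 in DMSO).

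Ion channel genes had 12 of 100 members up and 7 down, near the 9.75% and 9.79% of all genes. SCN2A, a neuronal voltage-gated sodium channel (chr2:165194993-165392310), stood at 1.36, 0.877, 1.504 and 1.38 CPM in DMSO and 6.89, 8.79, 8.204 and 8.44 CPM in Nutlin-3a, a rise of 2.67 ± 0.16 (adjusted p = 6.60e-06). The lowest DMSO library was again harvest 3 of NTC1. KCNJ2, an inward rectifier potassium channel, rose by 0.99 ± 0.09, from 15.4 ± 1.496 to 30.5 ± 2.66 CPM. CHRNA5, a nicotinic acetylcholine receptor subunit, fell by 0.70 ± 0.07, from 30.4 ± 2.42 to 18.7 ± 0.882 CPM, and KCNG3, a modifier of potassium channels, fell by 1.00 ± 0.14. With single libraries left out, 6 (without harvest 1 of NTC1 in Nutlin-3a) to 10 (without harvest 3 of NTC1 in DMSO) members rose and 3 (without harvest 1 of NTC2 in DMSO) to 12 (without harvest 3 of NTC2 in Nutlin-3a) fell.

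Genes of inositol phosphate and PI3K signalling had 11 of 83 up and 7 down (13.3% and 8.43%), near the 9.75% and 9.79% of all genes. ITPKC, a kinase that converts inositol trisphosphate, stood at 3.99, 3.94, 3.22 and 2.44 CPM in DMSO and 10.1, 10.4, 8.33 and 10.3 CPM in Nutlin-3a, a rise of 1.54 ± 0.13. INPP1, which removes a phosphate from inositol polyphosphates, rose by 0.92 ± 0.07, and PLCL2, a phospholipase C relative without catalytic activity, by 1.01 ± 0.09. The phosphatases PHLPP1 and PHLPP2, which dephosphorylate AKT, fell together. PHLPP1 went from 21.4 ± 3.54 to 12.3 ± 1.10 CPM (-0.79 ± 0.10) and PHLPP2 from 37.9 ± 4.52 to 28.0 ± 1.05 CPM (-0.43 ± 0.08). SYNJ2, a lipid phosphatase of endocytosis, fell by 0.53 ± 0.07. The counts ranged from 7 (without harvest 1 of NTC2 in DMSO) to 13 (without harvest 3 of NTC1 in DMSO) for risers and from 3 (without harvest 1 of NTC2 in Nutlin-3a) to 13 (without harvest 3 of NTC1 in DMSO) for fallers.

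Genes of lipid transport and oxidation moved in both directions. ABCA1, the exporter of cholesterol to lipoproteins (chr9:104781002-104928237), stood at 23.4, 14.4, 22.4 and 20.9 CPM in DMSO and 50.8, 39.5, 51.6 and 43.8 CPM in Nutlin-3a, a rise of 1.20 ± 0.15 (adjusted p = 0.000594). The treatments did not overlap, and the lowest DMSO value was that of harvest 3 of NTC1. In the list of fatty acid oxidation and lipid signalling, 11 of 94 members rose and 7 fell, near the 9.75% and 9.79% of all genes. LPIN3, a phosphatidate phosphatase, rose by 1.25 ± 0.18, and the carnitine acyltransferases CROT and CPT2 rose by 0.48 ± 0.07 and 0.40 ± 0.07. The fallers included PPARGC1B, a coactivator of mitochondrial and lipid genes, with -0.81 ± 0.14, and SPHK1, the kinase that makes sphingosine 1-phosphate, with -1.26 ± 0.29 (adjusted p = 0.0141). The risers kept within 1.5 times of their count with any library left out, and the fallers ranged from 3 (without harvest 3 of NTC1 in Nutlin-3a) to 11 (without harvest 3 of NTC1 in DMSO). In the list of cholesterol and fatty acid synthesis, which holds ABCA1, 6 of 39 rose and 1 fell, and with single libraries left out as few as 3 (without harvest 1 of NTC1 in DMSO) rose and as many as 3 (without harvest 3 of NTC1 in DMSO) fell.

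Solute carriers rose and fell in similar numbers, 22 of 229 up and 25 down, near the 9.75% and 9.79% of all genes. SLC30A1, the zinc exporter of the plasma membrane, stood at 82.8, 96.3, 96.9 and 136 CPM in DMSO and 229, 318, 254 and 273 CPM in Nutlin-3a, a rise of 1.39 ± 0.15. SLCO4A1, an organic anion transporter, fell from 2.23 ± 0.413 to 0.944 ± 0.0580 CPM (-1.23 ± 0.13). The count of fallers ranged from 6 (without harvest 1 of NTC2 in Nutlin-3a) to 38 (without harvest 3 of NTC1 in DMSO). 

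The arrestin domain gene TXNIP, which inhibits thioredoxin and glucose uptake, rose from 49.8 ± 8.50 to 77.0 ± 4.43 CPM (0.63 ± 0.11), and its relative ARRDC4 from 74.5 ± 11.3 to 125 ± 6.20 CPM (0.76 ± 0.09). They had the smallest p-values among risers of the antioxidant and glutathione list. Of its 73 members 5 rose and 5 fell (6.85% each), under the 9.75% and 9.79% of all genes. With harvest 3 of NTC1 in DMSO left out, 10 members rose, and with single libraries left out as few as 0 (without harvest 1 of NTC1 in Nutlin-3a) fell.

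Receptors coupled to G proteins fell more often than they rose. Of 84 tested, 20 fell and 9 rose, beside 9.79% and 9.75% of all genes, and the count of fallers ranged from 9 (without harvest 1 of NTC2 in Nutlin-3a) to 24 (without harvest 3 of NTC1 in DMSO). S1PR5, a receptor of sphingosine 1-phosphate, fell by 0.69 ± 0.13, from 1.72 ± 0.244 to 1.06 ± 0.0322 CPM, while S1PR3, another of its receptors, rose by 0.60 ± 0.09, from 11.1 ± 1.34 to 16.8 ± 1.08 CPM. LPAR3, a receptor of lysophosphatidic acid, fell by 0.33 ± 0.06. F2RL2, a thrombin receptor, rose by 1.11 ± 0.16. Of the smaller lists, complement and coagulation genes had 4 of 35 up and 1 down, intermediate filament genes 1 of 20 up and 4 down, and nuclear receptors 1 of 33 up and 2 down. With single libraries left out, the complement risers ranged from 2 (without harvest 3 of NTC1 in Nutlin-3a) to 4 (without harvest 3 of NTC1 in DMSO) and the fallers went down to 0 (without harvest 1 of NTC1 in Nutlin-3a). The intermediate filament risers ranged from 0 (without harvest 1 of NTC1 in DMSO) to 2 (without harvest 3 of NTC1 in DMSO), and the fallers went down to 2 (without harvest 1 of NTC2 in Nutlin-3a). The nuclear receptor risers reached 2 (without harvest 3 of NTC2 in Nutlin-3a), and the fallers ranged from 1 (without harvest 1 of NTC1 in DMSO) to 6 (without harvest 3 of NTC1 in DMSO).

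Among 45 genes of RAS and MAP kinase feedback, 7 rose and 5 fell, and with single libraries left out as few as 2 (without harvest 1 of NTC2 in DMSO) fell. KSR1, a scaffold of the RAF and MEK kinases, rose from 8.50 ± 0.851 to 15.2 ± 0.772 CPM (0.84 ± 0.08), and the phosphatases DUSP14 and DUSP10 rose by 0.59 ± 0.07 and 0.65 ± 0.09. ETV5 and ETV1, transcription factors induced by the pathway, went the other way, with -0.40 ± 0.08 and -0.44 ± 0.10. The call of ETV1 was lost without harvest 1 of NTC1 in DMSO, of NTC2 in DMSO or of NTC2 in Nutlin-3a.

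Wnt pathway genes fell more often than they rose, and most were not called. Of 39 members, 10 fell and 4 rose, with a median of -0.21. DKK1, the secreted antagonist that blocks the LRP coreceptors, stood at 512, 565, 577 and 569.7 CPM in DMSO and 865, 966, 941 and 881 CPM in Nutlin-3a, a rise of 0.72 ± 0.06 (adjusted p = 8.62e-05). CTNNBIP1, an inhibitor of the binding of beta-catenin to TCF factors, rose by 0.41 ± 0.09. Among the Frizzled receptors, FZD1 fell from 3.50 ± 0.431 to 1.59 ± 0.204 CPM (-1.14 ± 0.11) and FZD7 from 23.0 ± 1.15 to 16.9 ± 1.19 CPM (-0.45 ± 0.07), whereas FZD6 rose by 0.49 ± 0.09. LEF1, a transcription factor of the pathway, fell by 0.50 ± 0.07, and ZNRF3, a ligase that removes Frizzled receptors from the surface and so restrains the pathway, fell by 0.63 ± 0.10. The fallers included both activating and restraining members. Both counts stayed within 1.5 times of these with any library left out.

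Notch genes that fell included a feedback inhibitor. NRARP, a feedback inhibitor of Notch, stood at 1.69, 1.79, 1.80 and 1.68 CPM in DMSO and 0.726, 0.560, 0.701 and 0.584 CPM in Nutlin-3a, a change of -1.44 ± 0.14 (adjusted p = 0.000143). HEY1, a repressor induced by Notch, fell by 0.82 ± 0.15, and LFNG, a glycosyltransferase that modifies the receptor, fell by 0.89 ± 0.19. In all, 4 of 32 members fell and 3 rose (12.5% and 9.38%), near the 9.79% and 9.75% of all genes. Without harvest 3 of NTC1 in DMSO, 5 rose, and without harvest 1 of NTC1 in Nutlin-3a, 1 rose.

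TGF-beta and BMP genes split evenly, with 8 of 49 up and 8 down. The receptor TGFBR1 rose by 0.62 ± 0.11, from 65.2 ± 13.9 to 98.9 ± 5.26 CPM, and the inhibitory SMAD7 by 0.47 ± 0.09. On the BMP side, the secreted antagonist NOG fell from 4.96 ± 0.546 to 2.79 ± 0.400 CPM (-0.83 ± 0.13) and the ligand BMP8B from 4.09 ± 0.221 to 2.50 ± 0.283 CPM (-0.71 ± 0.11). With single libraries left out, 5 (without harvest 1 of NTC1 in Nutlin-3a) to 8 (without harvest 3 of NTC1 in DMSO) rose and 3 (without harvest 1 of NTC2 in DMSO) to 11 (without harvest 3 of NTC1 in DMSO) fell. In the Hippo list, CCN2, a matrix-associated target of YAP, rose by 0.34 ± 0.05, and TEAD4, a DNA-binding partner of YAP, fell by 0.61 ± 0.07, from 33.5 ± 3.53 to 21.9 ± 1.48 CPM. Of its 40 members, 5 rose and 2 fell, and the fallers reached 7 (without harvest 3 of NTC1 in DMSO).

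Developmental transcription factors fell more often than they rose. Of 127 homeobox, forkhead, SOX and related factors, 30 fell and 8 rose, beside 9.79% and 9.75% of all genes. LHX4, a LIM homeobox factor, stood at 1.86, 1.77, 2.25 and 1.84 CPM in DMSO and 0.740, 0.491, 0.701 and 0.559 CPM in Nutlin-3a, a change of -1.63 ± 0.17 (adjusted p = 0.000204). HOXA13, a posterior homeobox factor, stood at 13.0, 12.3, 15.5 and 14.9 CPM in DMSO and 6.82, 6.53, 6.79 and 5.62 CPM in Nutlin-3a, a change of -1.11 ± 0.10. In both genes every treated library was well below the lowest DMSO library. SOX4 fell by 0.97 ± 0.08, from 11.8 ± 0.801 to 6.05 ± 0.255 CPM, and FOXP1 fell by 0.68 ± 0.06. HOXC13, of another HOX cluster, was the leading riser, from 6.88 ± 0.937 to 14.7 ± 1.54 CPM (1.10 ± 0.11). The count of fallers stayed within 1.5 times with any library left out, and the risers fell to 5 (without harvest 1 of NTC1 in DMSO).

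Axon guidance genes gave 8 risers and 2 fallers of 55, or 6 and 2 of the 53 outside the textbook lists. NTN1, the guidance cue netrin 1, rose from 2.48 ± 0.871 to 5.22 ± 0.758 CPM (1.11 ± 0.17). EFNB2, the membrane ligand ephrin B2, stood at 19.0, 19.3, 21.9 and 24.1 CPM in DMSO and 10.6, 10.6, 10.8 and 11.6 CPM in Nutlin-3a, a change of -0.95 ± 0.07 (adjusted p = 4.05e-05), and EFNA5, another ephrin, fell by 0.52 ± 0.08. The treatments did not overlap in any of the 3 genes. With harvest 1 of NTC2 in DMSO left out, 3 rose, and without harvest 3 of NTC1 in DMSO 5 fell. Among receptor tyrosine kinases and ligands, CSF1, the macrophage colony-stimulating factor, rose from 1.02 ± 0.148 to 3.36 ± 0.341 CPM (1.72 ± 0.14), and NRG1, a ligand of ERBB receptors, from 219 ± 7.82 to 312 ± 12.0 CPM (0.51 ± 0.06). Of that list's 50 members, 5 rose and 3 fell, and with single libraries left out as many as 8 (without harvest 3 of NTC1 in DMSO) rose. The fallers of that list ranged from 1 (without harvest 1 of NTC2 in DMSO) to 5 (without harvest 3 of NTC1 in DMSO).

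Ribosome biogenesis genes fell more often than they rose. Of 103 tested members, 32 fell and 1 rose, with a median of -0.17. With single libraries left out, the count of fallers was 14 (without harvest 1 of NTC2 in Nutlin-3a) to 51 (without harvest 3 of NTC1 in DMSO). NOLC1, a nucleolar chaperone of small nucleolar ribonucleoproteins, stood at 398, 384, 388 and 400.3 CPM in DMSO and 299.6, 296, 283 and 284 CPM in Nutlin-3a, a change of -0.43 ± 0.05. POLR1E, a subunit of RNA polymerase I, stood at 61.1, 59.3, 60.3 and 58.1 CPM in DMSO and 44.8, 43.7, 43.0 and 45.8 CPM in Nutlin-3a, a change of -0.43 ± 0.05. The treatments were well separated in both genes although the change was small. DKC1, the pseudouridine synthase dyskerin, fell by 0.42 ± 0.05, and URB2, of the 60S assembly pathway, fell by 0.62 ± 0.08. WDR43 of the small subunit processome was the only riser, by 0.27 ± 0.07, and its call was kept only without harvest 3 of NTC2 in DMSO or harvest 3 of NTC2 in Nutlin-3a. The cytosolic ribosomal proteins themselves had 1 riser (RPS27L, on the p53 list) and 0 fallers by edgeR (0 also at an unadjusted p under 0.05 and by DESeq2) among 82, and with single libraries left out as many as 4 (without harvest 3 of NTC1 in DMSO) rose. That count is not stable, since 38 of 82 rose in NTC2 alone and 0 in NTC1 alone. In the PURPL guide lines, without harvest 1 of sg2 in Nutlin-3a, 68 of 82 rose and 1 fell, beside 21.2% and 24.3% of all genes there.

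MYC, the transcription factor that drives ribosome and nucleotide synthesis, stood at 105, 101, 103 and 89.7 CPM in DMSO and 57.8, 52.2, 57.6 and 53.1 CPM in Nutlin-3a, a change of -0.86 ± 0.07 (adjusted p = 6.43e-05). Nucleotide and one-carbon genes fell more often than they rose, with 13 of 60 down and 2 up. PPAT, which commits to purine synthesis, stood at 74.3, 63.0, 83.5 and 88.3 CPM in DMSO and 44.1, 46.0, 46.5 and 43.4 CPM in Nutlin-3a, a change of -0.77 ± 0.09. In PPAT the treated libraries were closer together than the DMSO libraries. GMPS, which makes guanosine monophosphate, fell by 0.47 ± 0.07, PRPS2, which makes the ribose donor, fell by 0.44 ± 0.07, and DCTPP1, which degrades modified cytidine nucleotides, fell by 0.77 ± 0.11. The fallers stayed within 1.5 times of their count with any library left out, and with single libraries left out as many as 4 (without harvest 3 of NTC1 in DMSO) rose.

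Translation factors, tRNA synthetases and genes of the ATF4 and unfolded protein responses gave 7 risers and 0 fallers of 50 by edgeR, with 2 falling at an unadjusted p under 0.05 and 1 by DESeq2. HSPA5, the endoplasmic reticulum chaperone BiP, stood at 1087, 969, 1238 and 1019 CPM in DMSO and 1426, 1455, 1613 and 1493 CPM in Nutlin-3a, a rise of 0.47 ± 0.07. PPP1R15A, which reverses the block of translation initiation, rose by 0.48 ± 0.06. The count of risers ranged from 3 (without harvest 1 of NTC2 in Nutlin-3a) to 9 (without harvest 3 of NTC1 in DMSO), and with single libraries left out as many as 2 (without harvest 3 of NTC1 in DMSO) fell.

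Chromatin genes fell more often than they rose, 21 against 8 of 113. CBX2, a Polycomb subunit that compacts chromatin, stood at 4.92, 7.01, 4.06 and 4.02 CPM in DMSO and 1.96, 2.01, 1.85 and 1.96 CPM in Nutlin-3a, a change of -1.34 ± 0.15 (adjusted p = 0.000377). DNMT3B, a DNA methyltransferase, fell by 0.60 ± 0.09, and PCGF6, another Polycomb subunit, fell by 0.46 ± 0.06. EZH1, the histone methyltransferase of resting cells, rose by 0.47 ± 0.09, from 21.7 ± 2.78 to 29.9 ± 1.06 CPM, and HDAC9, a class II deacetylase, by 0.78 ± 0.09. The count of fallers ranged from 13 (without harvest 1 of NTC2 in Nutlin-3a) to 38 (without harvest 3 of NTC1 in DMSO).

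Splicing and RNA-binding genes had 12 risers and 17 fallers of 125 (9.6% and 13.6%), near the 9.75% and 9.79% of all genes. HNRNPF, a splicing regulator, stood at 384, 412, 383 and 386 CPM in DMSO and 271, 269, 259 and 266 CPM in Nutlin-3a, a change of -0.56 ± 0.05. SRSF4 fell by 0.45 ± 0.06 and HNRNPAB fell by 0.48 ± 0.07. RBM38, which stabilises CDKN1A mRNA and is itself known to respond to p53, rose by 0.80 ± 0.15, and CPEB4, a regulator of polyadenylation in the cytoplasm, by 0.85 ± 0.13. The ranges were 5 (without harvest 1 of NTC1 in Nutlin-3a) to 12 (without harvest 3 of NTC1 in DMSO) for risers and 8 (without harvest 1 of NTC2 in Nutlin-3a) to 25 (without harvest 3 of NTC1 in DMSO) for fallers.

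Histone genes moved in both directions. Of 28 tested, 9 rose and 3 fell, and with single libraries left out as few as 2 (without harvest 1 of NTC2 in DMSO) rose and as few as 1 (without harvest 1 of NTC1 in Nutlin-3a) fell. The risers carry symbols of replication-dependent histones, whose main transcripts lack a poly(A) tail, and lay at low levels. HIST1H2BD went from 1.74 ± 0.112 to 2.98 ± 0.292 CPM (0.78 ± 0.11) and HIST1H3E from 1.57 ± 0.259 to 2.57 ± 0.381 CPM (0.71 ± 0.16). The variant histones H2AFX and H1F0 fell, H2AFX from 20.0 ± 5.25 to 12.6 ± 1.86 CPM (-0.64 ± 0.16) and the linker histone H1F0 from 434 ± 48.7 to 329.5 ± 12.0 CPM (-0.39 ± 0.07). The call of H2AFX was lost without harvest 1 or 3 of NTC1 in Nutlin-3a or harvest 1 of NTC2 in Nutlin-3a, and that of HIST1H3E without harvest 1 of NTC2 in DMSO.

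Glycolysis and hypoxia genes gave 6 risers and 6 fallers of 43 (14.0% each), beside 9.75% and 9.79% of all genes. With single libraries left out, as few as 2 (without harvest 1 of NTC1 in Nutlin-3a) rose. The kinases that set the level of fructose 2,6-bisphosphate, a regulator of glycolysis, moved apart. PFKFB2 stood at 40.5, 30.03, 39.0 and 38.7 CPM in DMSO and 51.8, 50.2, 49.5 and 46.1 CPM in Nutlin-3a, a rise of 0.42 ± 0.10, and PFKFB3 at 48.0, 50.5, 42.5 and 45.2 CPM in DMSO and 38.8, 34.6, 35.3 and 36.6 CPM in Nutlin-3a, a change of -0.36 ± 0.07 (adjusted p = 0.00522). The call of PFKFB2 was lost without harvest 1 of NTC1 or NTC2 in Nutlin-3a. HK2, the hexokinase of the first step, fell by 0.27 ± 0.05, and SLC2A3, a glucose transporter, rose by 0.56 ± 0.08.

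Chaperones and their partners gave 7 risers and 9 fallers of 69 (10.1% and 13.0%), near the 9.75% and 9.79% of all genes. DNAJC21, a cochaperone of ribosome assembly, stood at 136, 123.5, 142 and 148 CPM in DMSO and 223, 236, 237 and 234.4 CPM in Nutlin-3a, a rise of 0.76 ± 0.06 (adjusted p = 5.26e-05). HSPA2, a member of the HSP70 family abundant in testis, fell by 0.99 ± 0.10, from 7.66 ± 0.731 to 3.85 ± 0.169 CPM. The risers went down to 4 (without harvest 1 of NTC1 in DMSO), and the fallers reached 15 (without harvest 3 of NTC1 in DMSO).

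Clock genes included a marked riser and fallers. BHLHE40, a repressor of the clock also induced by hypoxia, stood at 15.0, 15.0, 12.9 and 13.9 CPM in DMSO and 39.3, 48.5, 42.7 and 46.6 CPM in Nutlin-3a, a rise of 1.64 ± 0.09 (adjusted p = 3.69e-06). It was the only riser of 21 clock genes, of which 4 fell. PER3, a period gene, fell by 0.79 ± 0.10, from 8.93 ± 0.724 to 5.15 ± 0.359 CPM. The count of fallers went down to 2 (without harvest 1 of NTC2 in Nutlin-3a).

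Genes of the ubiquitin system moved in both directions, 41 up and 48 down of 347 (11.8% and 13.8%), beside 9.75% and 9.79% of all genes. Outside the textbook lists, 37 rose and 45 fell of 339. TRIM32, a ligase of muscle and neural cells, stood at 36.6, 33.8, 36.8 and 33.9 CPM in DMSO and 57.6, 58.1, 58.3 and 58.9 CPM in Nutlin-3a, a rise of 0.72 ± 0.06. KLHL23, a kelch adaptor of cullin ligases, stood at 53.1, 41.8, 58.3 and 58.2 CPM in DMSO and 25.3, 23.3, 24.7 and 23.8 CPM in Nutlin-3a, a change of -1.12 ± 0.09 (adjusted p = 6.94e-05). Fallers also included the DNA damage ligases RNF168 (-0.68 ± 0.06), which ubiquitinates histones at breaks, and RFWD3 (-0.86 ± 0.08), which acts at stalled forks, and RNF219 (-0.89 ± 0.08), of replication origins. The proteasome itself had 0 of 46 members up and 2 down by edgeR (1 up at an unadjusted p under 0.05 and 0 by DESeq2). The fallers of the ubiquitin list ranged from 26 (without harvest 1 of NTC2 in Nutlin-3a) to 70 (without harvest 3 of NTC1 in DMSO).

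Zinc finger genes of the ZNF family, largely KRAB repressors, had 70 of 439 up and 46 down. ZNF540 rose from 0.899 ± 0.180 to 3.38 ± 0.2338 CPM (1.90 ± 0.16) and ZNF441 from 6.58 ± 1.28 to 15.3 ± 0.843 CPM (1.23 ± 0.11). ZNF473, a protein of histone RNA processing, fell by 0.52 ± 0.06. With single libraries left out, the count ranged from 26 (without harvest 1 of NTC2 in Nutlin-3a) to 73 (without harvest 3 of NTC1 in DMSO) for risers and from 30 (without harvest 1 of NTC2 in Nutlin-3a) to 74 (without harvest 3 of NTC1 in DMSO) for fallers.

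Of 138 lysosome and autophagy genes, 17 rose and 2 fell, beside 9.75% and 9.79% of all genes, and most were not called. TPP1, a lysosomal peptidase, stood at 64.2, 57.5, 61.9 and 66.2 CPM in DMSO and 77.7, 90.5, 79.3 and 88.4 CPM in Nutlin-3a, a rise of 0.43 ± 0.08. GABARAPL1, a member of the ATG8 family that coats autophagosomes, rose by 0.34 ± 0.06, and VPS37B, of the ESCRT machinery, by 0.45 ± 0.09. The count of risers ranged from 7 (without harvest 1 of NTC2 in Nutlin-3a) to 21 (without harvest 3 of NTC1 in DMSO), and with single libraries left out as few as 1 (without harvest 1 of NTC1 in DMSO) fell. Of 107 cilium genes, 14 rose and 6 fell. BBS4, BBS7 and BBS2 encode subunits of the BBSome, which carries cargo in the cilium, and rose by 0.67 ± 0.07, 0.52 ± 0.08 and 0.39 ± 0.06. BBS4 went from 17.5 ± 1.08 to 27.9 ± 1.05 CPM with no overlap. The count of cilium risers ranged from 4 (without harvest 1 of NTC1 in Nutlin-3a) to 15 (without harvest 3 of NTC1 in DMSO) and that of fallers from 2 (without harvest 1 of NTC1 in Nutlin-3a) to 8 (without harvest 3 of NTC1 in DMSO).

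Matrix genes rose in 13 of 109 cases and fell in 3 (11.9% and 2.75%), beside 9.75% and 9.79% of all genes. ADAMTS1, a secreted protease of proteoglycans, stood at 285, 267, 291 and 291 CPM in DMSO and 508, 545, 516 and 531 CPM in Nutlin-3a, a rise of 0.89 ± 0.06 (adjusted p = 1.06e-05). ADAMTS6, of the same family, rose by 0.58 ± 0.09. LAMB1, a laminin chain, fell by 0.48 ± 0.07, from 187 ± 13.1 to 134 ± 11.1 CPM. The risers stayed within 1.5 times of their count with any library left out, and with single libraries left out as few as 1 (without harvest 1 of NTC1 in DMSO) fell. DSC3, a desmosomal cadherin (chr18:30990008-31042815), stood at 133, 96.3, 155 and 160.0 CPM in DMSO and 265, 286, 285 and 277 CPM in Nutlin-3a, a rise of 1.05 ± 0.12. The DMSO libraries of DSC3 were spread, with harvest 3 of NTC1 lowest, but none reached the treated ones. Of 33 cell junction genes, 3 rose and 3 fell, and with single libraries left out as many as 5 (without harvest 3 of NTC1 in DMSO) rose and as many as 8 (without harvest 3 of NTC1 in DMSO) fell.

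Of 75 actin and contractile genes, 5 rose and 5 fell, and the fallers ranged from 1 (without harvest 1 of NTC1 in DMSO) to 8 (without harvest 3 of NTC1 in DMSO). ABLIM1, an actin-binding LIM protein, stood at 4.93, 3.98, 5.67 and 6.55 CPM in DMSO and 11.8, 14.3, 12.5 and 14.9 CPM in Nutlin-3a, a rise of 1.36 ± 0.13, and MYO6, a myosin that walks toward the minus end of actin, rose by 0.73 ± 0.10. ACTA2, the smooth muscle actin, rose by 1.12 ± 0.15, from 23.0 ± 5.62 to 49.3 ± 5.99 CPM. None of these genes overlapped between treatments. FHOD1, a formin, fell by 0.54 ± 0.14, a call that was kept only without harvest 3 of NTC1 in DMSO or harvest 3 of either treatment of NTC2.

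Genes of synapses and neuronal adhesion gave 12 risers and 6 fallers of 90 (13.3% and 6.67%), beside 9.75% and 9.79% of all genes. STXBP3, which binds syntaxin during vesicle fusion, rose from 50.2 ± 6.00 to 76.8 ± 3.98 CPM (0.62 ± 0.07), and the clustered protocadherin PCDHB2 from 19.2 ± 2.12 to 26.6 ± 1.09 CPM (0.47 ± 0.09). LRFN1, a synaptic adhesion protein, fell by 0.80 ± 0.19, a call lost without harvest 1 of NTC1 or NTC2 in Nutlin-3a. The risers went down to 7 (without harvest 1 of NTC2 in DMSO) and the fallers to 2 (without harvest 1 of NTC2 in Nutlin-3a).

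RNA of the mitochondrial genome rose. Of 15 tested genes of that genome, 12 rose and 0 fell by edgeR (0 also at an unadjusted p under 0.05 and by DESeq2), with a median of 0.52. MT-CO1, of cytochrome oxidase, stood at 1912, 1929.8, 2116 and 2028 CPM in DMSO and 2784, 3454, 2714 and 3024 CPM in Nutlin-3a, a rise of 0.58 ± 0.08. MT-ND4, of complex I, rose by 0.64 ± 0.09, from 639.6 ± 26.7 to 1001 ± 139.8 CPM, and MT-RNR2, the large ribosomal RNA, by 0.39 ± 0.07. In MT-CO1 and MT-ND4 the highest library was harvest 3 of NTC1 in Nutlin-3a. The share of counts in mitochondrial genes was 0.81% to 0.927% in DMSO and 1.10% to 1.47% in Nutlin-3a. Nuclear genes of the respiratory chain gave 2 of 83 up, SDHC of complex II (0.24 ± 0.05, a call lost without harvest 1 of NTC2 in DMSO) and NDUFV3 of complex I (0.50 ± 0.08), and 0 down by edgeR (0 also at an unadjusted p under 0.05 and by DESeq2). Without harvest 3 of NTC1 in DMSO, 10 of them rose. NTC2 alone gave 17 of 82 up and NTC1 alone 0 of 83. In the PURPL guide lines, without harvest 1 of sg2 in Nutlin-3a, 61 of 83 rose and 1 fell.

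Long noncoding RNAs rose far more often than they fell. Of 671 intergenic RNAs tested, 105 rose (15.6%) and 15 fell (2.24%), and of 645 antisense RNAs, 83 rose (12.9%) and 11 fell (1.71%), beside 9.48% and 11.4% of 12823 coding genes. Most are scarce, with a median of 0.389 CPM in DMSO for intergenic RNAs, so many could pass the filter on low counts only through the treatment in which they are higher. LINC00324 rose from 0.237 ± 0.0261 to 1.02 ± 0.203 CPM (2.10 ± 0.21), LINC00649 from 3.76 ± 0.591 to 7.81 ± 0.120 CPM (1.06 ± 0.12) and LINC02154 from 43.7 ± 2.65 to 67.4 ± 4.89 CPM (0.62 ± 0.06). Genes with a LINC symbol gave 39 risers and 3 fallers of 181, and the risers went down to 19 (without harvest 1 of NTC2 in Nutlin-3a). Those with an antisense symbol gave 39 and 5 of 294, and the risers went down to 18 (without harvest 1 of NTC2 in Nutlin-3a). The fallers ranged from 3 (without harvest 1 of NTC1 in DMSO) to 5 (without harvest 3 of NTC1 in DMSO) and from 2 (without harvest 1 of NTC2 in Nutlin-3a) to 8 (without harvest 3 of NTC1 in DMSO).

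Some noncoding RNAs are given with the coding gene beside them. NOP14-AS1 stood at 2.94, 2.66, 2.72 and 2.15 CPM in DMSO and 5.58, 5.87, 5.00 and 6.26 CPM in Nutlin-3a, a rise of 1.12 ± 0.12, while NOP14, of ribosome biogenesis, fell by 0.27. TMPO-AS1 fell by 0.76 ± 0.09, as did TMPO, of the nuclear lamina, by 0.48, and AC125807.2 fell by 0.84 ± 0.08, 764 bases from TEAD4. Of 147 noncoding risers within 1000 bases of a tested coding gene, 25 had a nearest coding gene that rose (17.0%), against 117 of 1215 noncoding genes that were not called (9.63%). These include entries that overlap the coding gene, such as TMPO-AS1 and NOP14-AS1. Without the strand setting, the counts of overlapping entries cannot be told apart. Where several coding genes overlapped an entry, only the first listed was taken as the nearest. Neighbours that rose can thus be missed, as MDM2 was for AC025423.2.

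SNHG1, the host of several small nucleolar RNAs, went the other way from most noncoding RNAs. It stood at 109, 115, 101 and 107 CPM in DMSO and 72.6, 70.2, 75.3 and 68.6 CPM in Nutlin-3a, a change of -0.59 ± 0.06 (adjusted p = 0.000222), and the treatments did not overlap. Of 43 host genes of small RNAs, 5 rose and 3 fell, and with single libraries left out as few as 3 (without harvest 3 of NTC1 in Nutlin-3a) rose and as few as 1 (without harvest 1 of NTC1 in Nutlin-3a) fell.

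The largest falls outside the textbook lists were of genes at low levels. NXPH2, a neurexophilin secreted by neurons, stood at 1.58, 1.42, 1.95 and 2.01 CPM in DMSO and 0.512, 0.710, 0.396 and 0.457 CPM in Nutlin-3a, a change of -1.74 ± 0.21 (adjusted p = 0.000547). SERTAD4, of a family of transcriptional coregulators and among the 10 largest falls (chr1:210232799-210246631), stood at 43.9, 38.0, 52.2 and 57.3 CPM in DMSO and 16.8, 15.4, 17.9 and 16.7 CPM in Nutlin-3a, a change of -1.51 ± 0.09 (adjusted p = 7.64e-06). BEND3, a DNA-binding repressor of transcription, stood at 8.93, 8.94, 9.28 and 9.53 CPM in DMSO and 3.66, 3.39, 3.13 and 3.52 CPM in Nutlin-3a, a change of -1.42 ± 0.09. In BEND3 the DMSO libraries were close together. RHOBTB2, an atypical GTPase, fell by 1.39 ± 0.13, from 9.50 ± 1.80 to 3.57 ± 0.470 CPM, FAM222A fell by 1.43 ± 0.23 and PAQR4, a membrane protein of sphingolipid metabolism, fell by 1.39 ± 0.16. An entry listed as AC011529.1 fell by 1.47 ± 0.17, from 1.31 ± 0.249 to 0.477 ± 0.153 CPM, and its identifier (ENSG00000065989.16) is that of PDE4A, a phosphodiesterase of cyclic AMP, in the gene table used here. AP001273.2 ranked among the 10 with -1.61 ± 0.33, but its DMSO values of 1.97, 5.15, 1.70 and 1.94 CPM overlapped the Nutlin-3a values of 1.75, 0.860, 0.457 and 0.584 CPM across lines. In the model of all groups without the divergent guide library it was not called (adjusted p = 0.327).

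**Figure D3:**
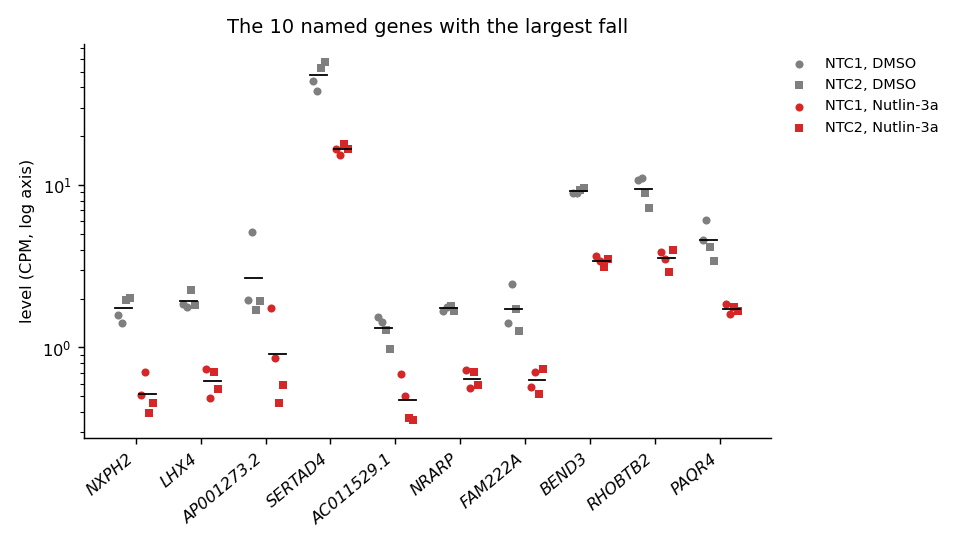
Level in CPM (log axis) of the 10 named genes with the largest fall, in each of the 8 libraries (circles NTC1, squares NTC2; grey DMSO, red Nutlin-3a), with the mean of each treatment as a bar. AP001273.2 is the gene whose treatments overlap across lines, with harvest 3 of NTC1 in DMSO at 5.15 CPM.

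Among fallers of at least 50 CPM, WEE1, the kinase that holds back entry into mitosis, stood at 84.4, 81.9, 94.4 and 104 CPM in DMSO and 44.9, 44.2, 46.5 and 43.7 CPM in Nutlin-3a, a change of -1.02 ± 0.07 (adjusted p = 1.94e-05). MCMBP, a binding partner of the replicative helicase, stood at 274, 245, 289 and 294 CPM in DMSO and 158, 152, 153 and 153 CPM in Nutlin-3a, a change of -0.83 ± 0.07. In both genes the 4 treated libraries were close together. GEMIN4, of the complex that assembles spliceosomal particles, fell by 0.92 ± 0.10, and KCTD12, an auxiliary subunit of GABA-B receptors, fell by 0.78 ± 0.11. DNAJC9, a cochaperone that carries histones, stood at 149, 151, 147 and 149 CPM in DMSO and 94.4, 92.9, 92.9 and 91.2 CPM in Nutlin-3a, a change of -0.68 ± 0.05. WEE1, MCMBP and DNAJC9 have known roles in replication or mitosis without being on the textbook list used here.

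Promoter windows of fallers were read for the E2F letters (TTTCCCGC, TTTGGCGC or TTTCGCGC, on either strand). They were present in 23.5% of 196 windows of coding cell cycle genes that fell, in 5.27% of 1517 windows of the other coding fallers, in 3.76% of 12018 windows of coding genes that were not called and in 4.05% of all 15220 windows of coding genes tested. The CCAAT box (CCAAT or ATTGG) was present in 60.7%, 36.7%, 34.2% and 34.8% of the same windows. The cell cycle genes homology region (TTTGAA or TTCAAA) was present in 31.1%, 11.1%, 10.1% and 10.7%, the E-box CACGTG in 7.65%, 11.1%, 9.31% and 9.26%, and the p53 half-site in 7.65%, 5.14%, 5.43% and 5.73%. In these windows the letters of cell cycle promoters were most frequent in the cell cycle fallers. In the other fallers their shares lay nearer those of genes not called, and above them (5.27% against 3.76% for the E2F letters). The differences were not tested. The 4 fallers outside the list whose windows hold the E2F letters (capitals) shown here are examples of replication, nucleotide and nucleolar genes. The stretches of MCMBP, DNAJC9 and PRPS2 stop at the base before the annotated start, and that of SNHG1 lies further upstream.
MCMBP (chr10:119872844-119872892, minus strand): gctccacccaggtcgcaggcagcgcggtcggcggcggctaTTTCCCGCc
DNAJC9 (chr10:73247256-73247310, minus strand): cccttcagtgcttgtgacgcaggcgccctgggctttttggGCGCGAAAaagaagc
PRPS2 (chrX:12791360-12791411, plus strand): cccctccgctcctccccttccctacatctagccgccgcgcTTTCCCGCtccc
SNHG1 (chr11:62856018-62856105, minus strand): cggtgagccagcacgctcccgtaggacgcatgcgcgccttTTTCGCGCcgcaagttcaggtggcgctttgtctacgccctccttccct

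NTC1 and NTC2 were then set side by side, each fitted alone with 2 libraries against 2. NTC1 gave 419 genes up (2.73% of 15321) and 390 down (2.55%), and NTC2 gave 1746 up (11.3% of 15388) and 2150 down (14.0%). The lines share no library. Of the 419 risers of NTC1, 413 changed in the same direction in NTC2 and 404 were called there in that direction, 1 in the opposite one. Of its 390 fallers, 387 were tested in NTC2, 379 had the same direction and 305 were called. In reverse the share was lower. Of the 1746 risers of NTC2, 1726 were tested in NTC1, 1414 had the same direction and 404 were called. Of the 2150 fallers of NTC2, 2140 were tested in NTC1, 1741 had the same direction and 305 were called, with 1 called in the opposite one.

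The difference of the response between the lines was tested as an interaction. It was called for 0 of 15750 genes by edgeR and for 5 by DESeq2, and 2387 had an unadjusted p under 0.05. Without harvest 1 of NTC1 in DMSO, 4191 genes were called, and with any other library left out 0 or 1. A p that misses the threshold does not show that the lines respond alike. U2AF1, a splicing factor subunit, is 1 of the 5 DESeq2 calls and has a near-identical copy on chromosome 21, so its counts are uncertain. It stood in NTC1 at 45.2 and 33.9 CPM in DMSO and at 109 and 101 CPM in Nutlin-3a, and in NTC2 at 103 and 101 CPM in DMSO and at 106 and 80.8 CPM in Nutlin-3a, so that the DMSO libraries of NTC1 were the ones set apart. The pseudogene AC004057.1, another DESeq2 call, stood at 13.5, 10.5, 1.70 and 3.40 CPM in DMSO and 11.2, 13.0, 10.8 and 10.1 CPM in Nutlin-3a.

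**Figure D4:**
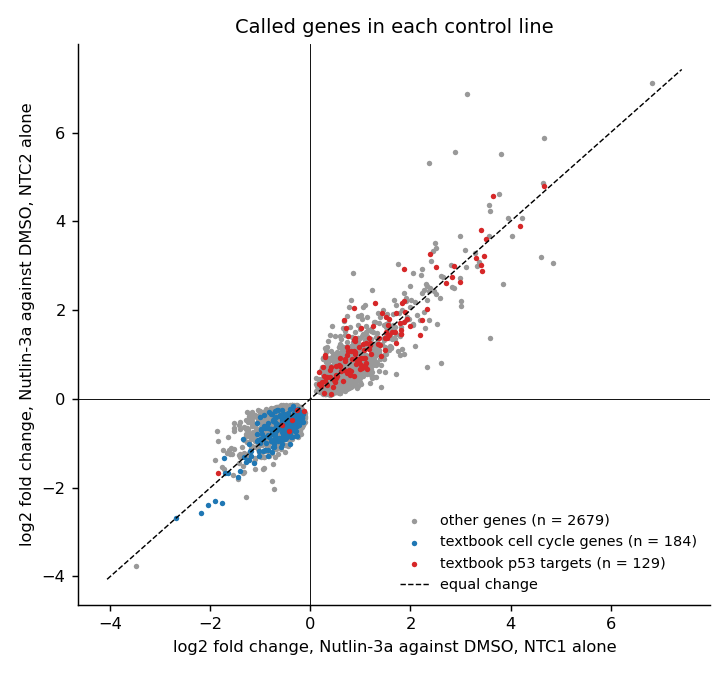
Log2 fold change of Nutlin-3a over DMSO in NTC2 alone against that in NTC1 alone, for 2992 called genes tested in both lines (grey, 2679 outside the textbook lists; blue, 184 cell cycle genes; red, 129 known p53 targets), with the line of equal change dashed. All 2992 have the same sign in both lines, which the choice of genes called over both lines favours.

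The PURPL guide lines gave a set of responses from libraries that the calls above did not use. With all 16 libraries, 1733 of 15602 genes rose (11.1%) and 2564 fell (16.4%). Harvest 1 of the sg2 line in Nutlin-3a stood apart from the other treated libraries, and without it 3322 of 15702 rose (21.2%) and 3810 fell (24.3%). Of the 251 risers of at least 2-fold outside the textbook lists, 248 were tested there. In the fit without that library, 245 had the same direction and 229 were called, with a median ratio of log2 fold changes of 0.969. With all 16 libraries, 223 were called. Of the 75 fallers, 73 were tested, 70 had the same direction and 61 were called (44 with all 16 libraries), with a median ratio of 0.917. None of either set was called in the opposite direction by edgeR.

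Single genes had similar values in the 2 sets of lines. GRIN2C changed by 4.76 in the NTC lines and 5.21 in the guide lines, CDH10 by 3.23 and 3.11, IL1B by 2.12 and 2.23, SCN2A by 2.67 and 2.71, and TAP1 by 1.18 and 1.37. Fallers included SERTAD4 with -1.51 and -1.77, LHX4 with -1.63 and -2.11, and WEE1 with -1.02 and -1.34. AP001273.2 was an exception, with -1.61 against 0.70, the latter not called. The difference of the response between guide and NTC lines, tested by edgeR on sums over harvests, was called for 0 of 17264 genes (621 with an unadjusted p under 0.05, and 2 called by DESeq2). Without the divergent library it was called for 0 of 17106 genes (994 with an unadjusted p under 0.05).

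**Figure D5:**
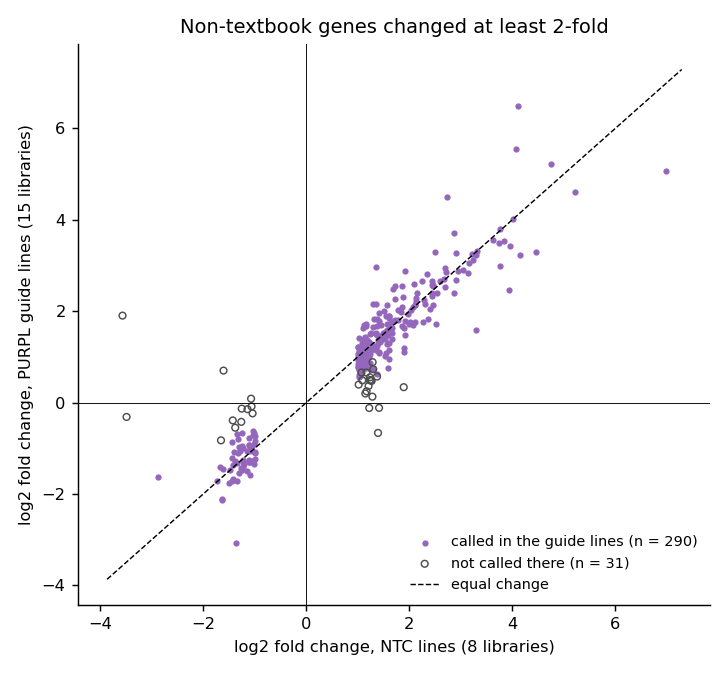
Log2 fold change in the PURPL guide lines (15 libraries, without harvest 1 of sg2 in Nutlin-3a) against that in the NTC lines (8 libraries) for 321 genes outside the textbook lists with a called change of 2-fold or more in NTC1 and NTC2 together, filled where called in the guide lines (290) and open where not (31), with the line of equal change dashed. Risers and fallers lie in the same quadrant in most cases.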

How the data were processed

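Polyadenylated RNA of 8 control libraries was analysed (TruSeq Stranded mRNA kit, per the labels' protocols). The authors deposited expected counts per gene in a table of all 24 libraries, and 5.61% to 6.22% of the values per library are not whole. Per the submitters' processing notes, cutadapt, STAR and RSEM were used on hg38, with DESeq2; the sources used here state neither their versions nor a strand setting of the counting.

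The counts were rounded, 45 second copies of pseudoautosomal genes (0.0222% of counts) were merged into the first copies, and 58825 genes remained. Genes passed edgeR's filter on low counts (minimum count 10) and were tested with edgeR 4.0.16 in R 4.3.3 (TMM scaling, robust quasi-likelihood F test, terms for line and treatment, 5 residual degrees of freedom). On simulated counts for 15114 genes of this comparison, 85.6% of 2-fold and 99.0% of 4-fold changes were recovered, with 13 false calls. Neither a GC trend nor changes under 2-fold, which most called genes show, were simulated, so these figures do not speak for such calls. The alternatives were DESeq2 1.42.0, size factors of the RLE kind, other filters, no term for line, replicate blocks, each line alone, models of all libraries, removal of the GC trend and leaving out each library. Gene positions are those of GENCODE 29, matched for 58552 genes.

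Members and gene lists were chosen with earlier results of these data known, and the letter patterns that define some gene family lists were corrected after values had been seen. Genes are named outside the textbook lists of p53 targets and cell cycle genes, among called genes of at least 1 CPM with the treatments apart in both lines: the 10 largest changes each way, the 8 largest at 50 CPM or more, up to 4 of each list by p, the 5 largest noncoding changes, and 3 each way by p for the difference between lines. MCC and LNCTAM34A lie outside this rule. Some genes and 1 list that it names are not reported here. Of 12806 tested coding genes, 10368 (81.0%) had a promoter window in RefSeq (GRCh38.p14).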

Additional observations from a re-analysis of the deposited data

Results flagged for a closer look

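Within the 4 libraries of a treatment, a library was singled out where its gap to the nearest other library exceeded the critical value of Dixon's test for 4 values. Of 356 groups examined, 24 had such a library, where chance gives about 1 in 20. Harvest 3 of NTC1 in DMSO was that library in 10 of the 24.

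In that library, URB2 was at 54.5 CPM (64.8 to 66.5 in the other 3), RFWD3 at 189.7 CPM (235.5 to 239.7), BBS2 at 26.5 CPM (29.6 to 29.7), PPARGC1B at 8.66 CPM (12.2 to 12.8), PCDHB2 at 16.0 CPM (20.2 to 20.3) and PFKFB2 at 30.03 CPM (38.7 to 40.5), all lower. CTNNBIP1 was at 10.9 CPM (8.46 to 8.82), HNRNPF at 411.5 CPM (382.6 to 386.5), LRFN1 at 2.22 CPM (1.20 to 1.36) and AP001273.2 at 5.15 CPM (1.70 to 1.97), all higher. Harvest 1 of NTC1 in DMSO was apart in NBEAP1 (0.0931 CPM) and in NOG (4.15 CPM). In NTC2 in DMSO, MT-RNR2 was apart in harvest 1 (979 CPM) and CPT2 in harvest 3 (11.9 CPM).

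In Nutlin-3a, harvest 1 of NTC2 was the highest for MDM2, at 4352 CPM against 3869 to 3878 in the other 3, and the lowest for ITPKC (8.33 CPM), DCTPP1 (18.0 CPM) and HNRNPAB (202.9 CPM). Harvest 1 of NTC1 was the lowest for IFIT2 (24.4 CPM), ERAP2 (118.9 CPM) and DNAJC21 (222.9 CPM). Harvest 3 of NTC2 was the highest for NLRP1 (29.5 CPM) and DNMT3B (4.66 CPM), and harvest 3 of NTC1 the highest for TMPO-AS1 (8.75 CPM). In all of these genes but AP001273.2, the treatments did not overlap over the 8 libraries, which the choice of named genes favours.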

How the results depend on the processing

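The response in the NTC lines was called for 1504 genes up and 1510 down. It was 419 and 390 in NTC1 alone, 684 and 659 in a model of 12 group means over all 24 libraries, and 320 and 102 with a fold of at least 2 beside the adjusted p. The model without the divergent library gave 2655 down and removal of the GC trend 2330 down. Leaving out single libraries gave 931 to 1685 up and 877 to 2282 down. The other alternatives stayed within 1.5 times (up 1134 to 2195, down 1057 to 2150). The difference between the lines was called for 0 genes by edgeR and 5 by DESeq2, and for 0 to 4191 with single libraries left out, the highest without harvest 1 of NTC1 in DMSO. In the guide lines, 3322 genes rose without the divergent library and 2696 by DESeq2, against 1733. DESeq2 called 2 genes for the difference between guide and NTC lines. The cause was not tested in any of these.

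The correlations of the harvests' deviations between groups ran from -0.096 to 0.436. With 2 harvests in each group, they do not settle whether harvest numbers pair the libraries. With the harvest number as a replicate block the counts were 1512 up and 1464 down, and with a block by line and harvest 1134 and 1057. Of 3554 combinations of 178 named genes with 20 alternatives, 3411 kept direction and call and 143 lost the call. With single libraries left out, 9 genes lost the call in 29 combinations. Changes under 2-fold rest on 4 libraries against 4, and scarce noncoding genes on few reads.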
